A study of Arabidopsis thaliana with 18 samples.

Results

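The signalling route that guards the pollen tube wall was followed through transcript levels of the receptor kinases ANX1, ANX2, BUPS1 and BUPS2, the GPI-anchored co-receptors LLG2 and LLG3, the peptide ligands RALF4 and RALF19, and the cytoplasmic kinase MRI. These 9 genes were listed by locus identifier, with earlier results of these data known. All 9 were found among the 28424 gene rows of the pollen nuclei table and the 24292 gene rows of the late microspore table. The 18 libraries of Arabidopsis thaliana (Col-0) fell into 6 groups of 3. Nuclei of mature pollen from a line named V-Mt were sorted into sperm cell nuclei (V-Mt SC) and vegetative cell nuclei (V-Mt VC), and wild-type (WT) pollen was sorted in the same manner (WT SC and WT VC). Whole late microspores, the stage before the division that forms the vegetative and generative cells, came from V-Mt (V-Mt LMS) and from WT (WT LMS).

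The V-Mt line carried pLat52:REF6-GFP, which drives the histone H3K27 demethylase REF6 from a promoter active in the vegetative cell lineage, together with pHTR10:HTR10-RFP as the sperm marker. The labels of the 6 V-Mt pollen libraries number the HTR gene of this marker upward from library to library, from HTR10 to HTR15. WT pollen carried pACTIN11:H2B-GFP and pHTR10:HTR10-RFP, so V-Mt and WT pollen differed in the GFP transgene as well as in REF6, and these differences cannot be told apart. V-Mt LMS carried pLat52:REF6-GFP and pHTR10:HTR10-RFP, and WT LMS carried pHTR10:HTR10-RFP alone. GFP-positive nuclei were collected as VC and RFP-positive nuclei as SC. The sort of microspores used their green autofluorescence and left out grains with RFP. Every plant was grown in a greenhouse under long days. Whether the replicates of a group are separate plants is not stated. The p-values therefore describe the spread among these libraries, and that spread may be technical. The pollen libraries hold RNA of nuclei and not of whole cells.

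RALF peptides are secreted and are read at the cell surface by receptor kinases of the CrRLK1L family together with small GPI-anchored proteins of the LORELEI family. In the Arabidopsis pollen tube, RALF4 and RALF19 act with ANX1, ANX2, BUPS1 and BUPS2 and with LLG2 and LLG3 to keep the growing tip intact, and loss of the ligands or receptors makes tubes burst early. RALF4 and RALF19 also bind the wall proteins LRX8 to LRX11. MRI is a receptor-like cytoplasmic kinase that acts below ANX1 and ANX2, and RBOHH and RBOHJ are the NADPH oxidases of the same route.

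REF6, the gene placed under the Lat52 promoter, stood at 1303, 2248 and 3001 FPKM (fragments scaled to transcript length and library size) in replicates 1, 2 and 3 of V-Mt VC, against 1.1, 0.42 and 0.48 FPKM in WT VC. Sperm markers summed to 11720.5 to 13846 FPKM in V-Mt SC and 5429 to 9379 FPKM in WT SC, against at most 147 FPKM in V-Mt VC and 70.0 FPKM in WT VC, and 6 of 6 passed the limma test as higher in SC than in VC within each line. The 7 vegetative markers were not absent from sperm nuclei, with sums of 642 to 1353 FPKM in V-Mt SC and 989 to 1346 FPKM in WT SC. From 18735 to 18932 genes reached 1 FPKM in V-Mt VC, against 8093 to 8386 in WT VC. Estimated depth was 9500000 to 24400000 fragments in the pollen nuclei libraries and 1900000 to 3200000 in the microspore libraries.

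Short stretches upstream of the start of 3 of the genes are shown because each carries a motif described below. Whether these motifs have a part in the differences between the lines was not tested. Sequence, coordinates and gene models come from the RefSeq annotation of TAIR10.1, 5′ to 3′ on the strand of the gene. The first is the MEF2-type CArG box, the element that MADS complexes of pollen bind, and its 10 bases are in capitals.
BUPS1: tagcaatttgCTAAATATAGaccattgaat
The BUPS1 stretch is chr4:18225326-18225355 on the minus strand and its box lies at bases -107 to -98 from the start of the gene. Within 250 bases on either strand, 2 of the 9 genes held the box, of which BUPS1 is shown, against 2.15% of 27443 promoters. Before BUPS1 only the nearest 58 bases lie outside the neighbouring gene AT4G39120, so its box falls within that gene.

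The second motif is the one that the zinc fingers of REF6 recognise, searched in the forms CTCTGTTT, CTCTGTTC, CTCTGCTT and CTCTGCTC on both strands. Within 250 bases it was found upstream of LLG2 and RALF4, both times on the strand opposite to the gene, and the capitals mark its reverse complement.
LLG2: tatagggtttaGAGCAGAGtactgacacgg
RALF4: agccgatcaaaAAGCAGAGccagaaataac
The LLG2 stretch is chr2:8925931-8925960 on the minus strand, with the motif at -145 to -138, and the RALF4 stretch is chr1:9882827-9882856 on the plus strand, with the motif at -113 to -106. The LLG2 motif falls within the neighbouring gene AT2G20710, which lies beyond the nearest 121 bases. Of 27443 promoters, 5.77% held a form of it within 250 bases. Within 1000 bases it was also found before ANX1 and RALF19, so that 4 of the 9 genes held it, against 21.9% of promoters. The pollen elements AGAAA and GTGA, searched on both strands with no regard to overlap, were each found in 7 of 9 members, against 82.5% and 77.5% of all promoters. A match of letters does not show that a factor binds, and a window without a match says nothing about the factor.

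The 250 bases before each of the ligand genes lie outside every other annotated gene and are given whole, since RALF4 and RALF19 had the highest correlation of any pair among the 9. Capitals in RALF4 mark the REF6 motif named above.
RALF4: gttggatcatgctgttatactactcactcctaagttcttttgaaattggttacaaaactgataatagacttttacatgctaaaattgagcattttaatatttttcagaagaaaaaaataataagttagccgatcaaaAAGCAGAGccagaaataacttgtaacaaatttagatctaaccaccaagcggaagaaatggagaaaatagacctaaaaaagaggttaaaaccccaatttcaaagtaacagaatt
RALF19: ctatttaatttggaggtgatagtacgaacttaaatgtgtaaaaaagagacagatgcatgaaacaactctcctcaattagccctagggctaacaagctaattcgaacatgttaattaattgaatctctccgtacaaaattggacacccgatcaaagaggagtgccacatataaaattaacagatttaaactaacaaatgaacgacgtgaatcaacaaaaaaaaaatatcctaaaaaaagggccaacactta
These are chr1:9882701-9882950 and chr2:14288073-14288322, both on the plus strand. Their GC contents were 30.4% for RALF4 and 33.6% for RALF19.

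In vegetative nuclei, the question was how the REF6 line differed from WT in these genes. All 9 fell in V-Mt VC relative to WT VC, and for each of them the 3 V-Mt VC libraries lay below the 3 WT VC libraries. Differences were tested with limma on log2(FPKM + 1), with Benjamini-Hochberg adjustment over the 19733 genes tested and a threshold of 0.05 (10.8% of the genes tested were called lower and 62.5% higher, and 14.5% had all V-Mt VC libraries below all WT VC libraries). The median log2 fold change of the 9 was -2.98, against 1.92 over all genes tested. In sorted bulk samples, fewer nuclei of a kind and less RNA per nucleus cannot be told apart, and FPKM is a share of each library. That overall median was 1.38 after median-ratio scaling of the libraries and 0.18 after quantile normalization, and the 9 calls kept their direction under both.

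MRI (AT2G41970, chr2:17520273-17522793), the cytoplasmic kinase, had 3.16, 4.16 and 3.38 FPKM in V-Mt VC, against 151, 275 and 282 FPKM in WT VC. Its log2 fold change was -5.65 (SE 0.55, limma adjusted p = 4.31e-06), the largest fall of the 9. All V-Mt VC libraries were low and close to each other, far below the lowest WT VC library.

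Among the receptor kinases, BUPS1 (AT4G39110, chr4:18221993-18225238) had 40.6, 32.5 and 32.3 FPKM in V-Mt VC, against 854, 812 and 812 FPKM in WT VC (log2 fold change -4.52, SE 0.24, limma adjusted p = 3.50e-08). ANX2 (AT5G28680, chr5:10719127-10722361) stood at 44.1, 39.3 and 37.9 FPKM in V-Mt VC, against 668, 461 and 463 FPKM in WT VC (log2 fold change -3.66, SE 0.32, limma adjusted p = 1.91e-06). BUPS1 and ANX2 were the more abundant copy of their pairs in WT VC and had nearly the same level in V-Mt VC. The scarcer copies fell less far on the log2 scale. ANX1 (AT3G04690, chr3:1273057-1276945) had 13.3, 15.6 and 10.9 FPKM in V-Mt VC, against 104, 113 and 114 FPKM in WT VC (-2.98, SE 0.54, limma adjusted p = 0.000507). BUPS2 (AT2G21480, chr2:9202494-9205471) had 9.15, 10.5 and 7.52 FPKM in V-Mt VC, against 82.9, 76.1 and 70.6 FPKM in WT VC (-2.96, SE 0.52, limma adjusted p = 0.000412). No V-Mt VC library came near a WT VC library for any of the 4 receptors.

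The co-receptors, which hold the RALF peptide together with the receptor kinase, fell as well. LLG3 (AT4G28280, chr4:14010685-14012700), the most abundant of the 9 in WT VC, had 172, 187 and 170.3 FPKM in V-Mt VC, against 1326, 1339 and 1353 FPKM in WT VC. Its fold change of -2.92 had the smallest error of the 9 (SE 0.19, limma adjusted p = 2.06e-07). LLG2 (AT2G20700, chr2:8924894-8925804) had 74.9, 48.5 and 55.7 FPKM in V-Mt VC, against 763, 614 and 538 FPKM in WT VC (log2 fold change -3.41, SE 0.38, limma adjusted p = 1.33e-05).

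The ligands had the smallest falls. RALF4 (AT1G28270, chr1:9882951-9884189) had 113, 109 and 159 FPKM in V-Mt VC, against 956, 677 and 549 FPKM in WT VC (log2 fold change -2.49, SE 0.56, limma adjusted p = 0.00218). RALF19 (AT2G33775, chr2:14288323-14289313) had 121, 107 and 192 FPKM in V-Mt VC, against 691, 546 and 547 FPKM in WT VC (-2.12, SE 0.62, limma adjusted p = 0.00983). The summed FPKM of both ligands was 2.18 to 3.96 times that of the 4 receptors in V-Mt VC, against 0.751 to 0.963 times in WT VC.

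**Figure D1:**
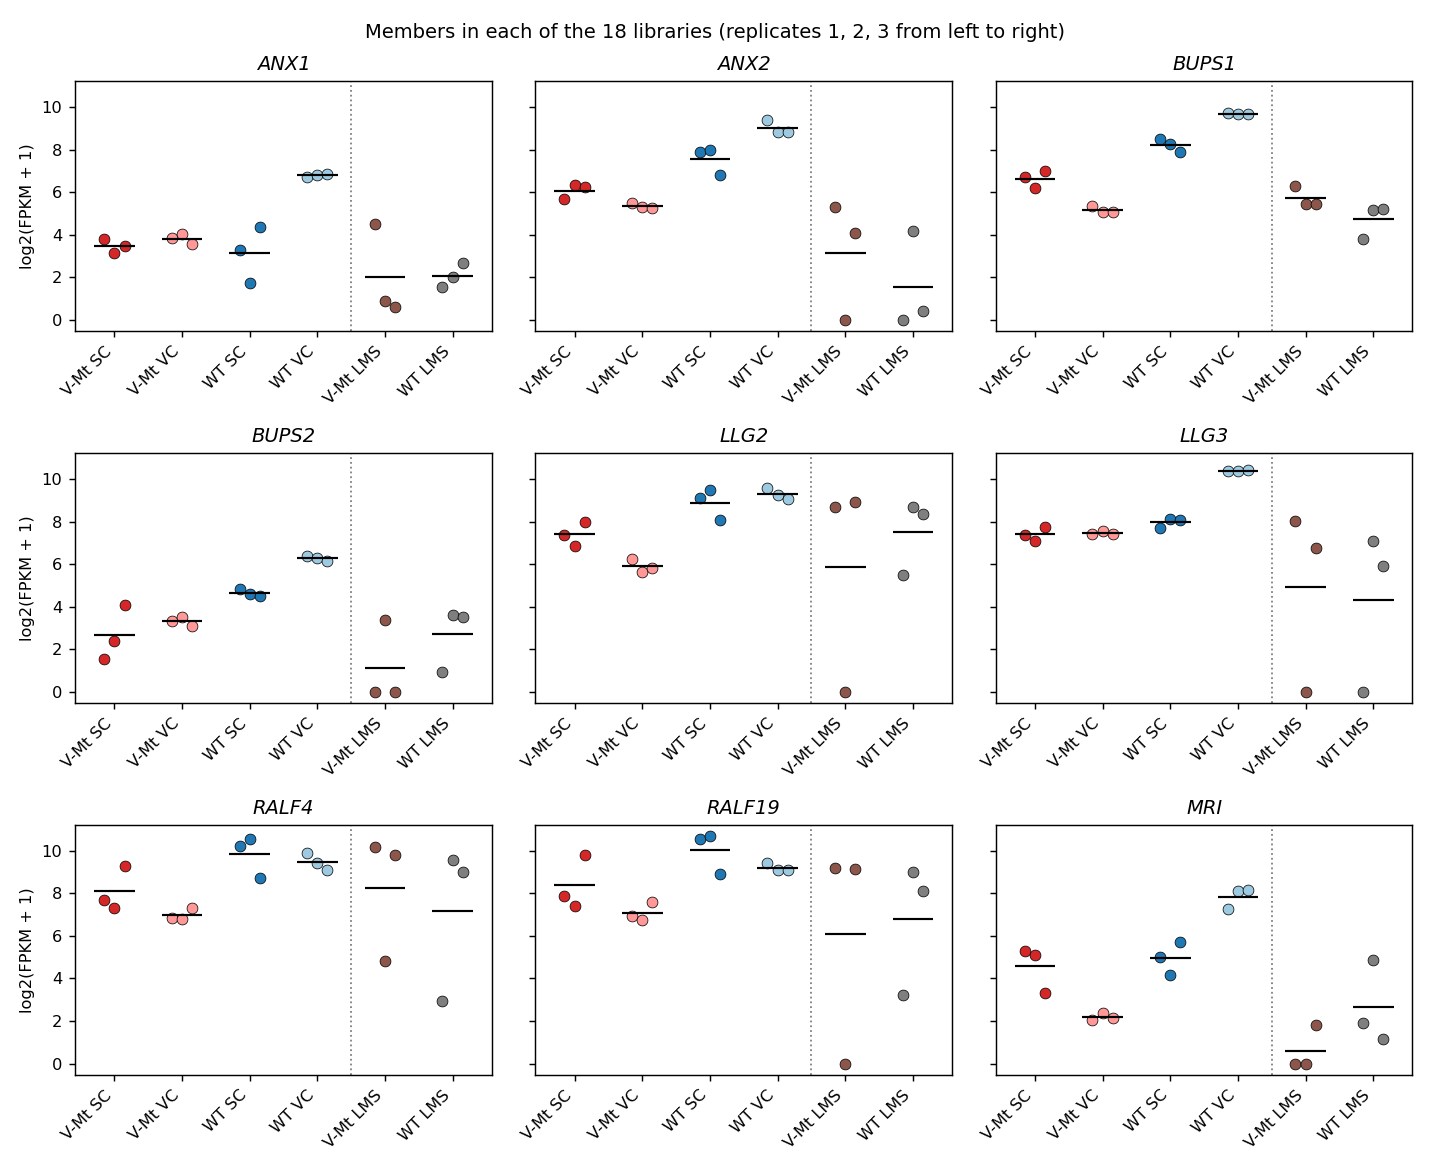
Level of each gene in each library, as log2(FPKM + 1), with replicates 1 to 3 from left to right and a line at the group mean. The dotted line separates the pollen nuclei table from the microspore table, which were made separately. All 9 genes have their 3 V-Mt VC points below their 3 WT VC points, and several genes spread widely within SC and LMS.

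Markers of other cells and tissues moved between the same libraries, where 62.5% of all genes tested were called higher and 10.8% lower. Of 6 sperm markers, 3 were higher and 2 lower, with list sums of 133 to 147 FPKM in V-Mt VC and 51.6 to 70.0 FPKM in WT VC. DUO1 averaged 35.0 FPKM in V-Mt VC and 1.17 FPKM in WT VC, and GCS1 averaged 15.2 FPKM in V-Mt VC and 1.7 FPKM in WT VC. Most of the list sum was MGH3, at 82.8 FPKM in V-Mt VC and 46.4 FPKM in WT VC on average. GEX2 went down, from 2.79 FPKM in WT VC to 1.27 FPKM in V-Mt VC, and DMP9 from 9.66 FPKM to 5.08 FPKM. The leaf markers RCA and LHCB1.1, 2 of 2 called higher, summed to 23.0 to 24.4 FPKM in V-Mt VC and 0 to 0.020 FPKM in WT VC, where LHCB1.1 was listed at 0. Of 5 tapetum markers tested, 3 were higher and 2 lower, with list sums of 36.5 to 44.3 FPKM in V-Mt VC and 11.9 to 15.8 FPKM in WT VC. ATA7, the most abundant of these in microspore libraries, was at 0 to 0.180 FPKM in V-Mt VC. The microspore marker MYB81 had 30.1 to 34.4 FPKM in V-Mt VC and at most 0.020 FPKM in WT VC. Vegetative markers summed to 2224 to 2953 FPKM in V-Mt VC and 4416 to 5379 FPKM in WT VC, with 4 of 7 lower, none higher and AGL66 and AGL104 not called. The part of these differences in the fall of the 9 genes was not tested.

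Genes that work with the 9 were read from lists of known partners. All 4 LRX genes, whose wall proteins bind RALF4 and RALF19, fell in V-Mt VC (10.8% of all genes tested were lower). LRX8 had 22.1, 28.9 and 29.0 FPKM in V-Mt VC, against 1863, 777 and 736 FPKM in WT VC (log2 fold change -5.22, SE 0.38, limma adjusted p = 4.05e-07), and LRX9 averaged 39.9 FPKM in V-Mt VC and 948 FPKM in WT VC (-4.52, SE 0.34, limma adjusted p = 5.48e-07). Of 10 downstream and partner genes, 9 were tested, 5 were lower and 2 higher (10.8% and 62.5% of all genes tested). Under quantile normalization none was called higher and 7 lower (33.2% and 25.4% of all genes tested). RBOHH averaged 14.6 FPKM in V-Mt VC and 317 FPKM in WT VC (-4.38, SE 0.89, limma adjusted p = 0.0011), and RBOHJ averaged 10.2 FPKM in V-Mt VC and 164 FPKM in WT VC (-3.85, SE 0.81, limma adjusted p = 0.00141). Also lower were the calcium pump gene ACA9 (93.0 FPKM in V-Mt VC and 955 FPKM in WT VC on average), MLO5 and AUN2. The 2 genes higher were MLO1, a member of the calcium channel group that responds to RALF peptides, and MLO9 of the same group, named here after their values were seen. MLO9 reached 1.28 FPKM at most in pollen nuclei outside V-Mt VC, so it was tested through that group.

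Other members of the receptor and co-receptor families were scarce. Of 13 other CrRLK1L genes, 3 passed the filter on low values (at least 1 FPKM in 3 libraries). Of those, 2 were called higher in V-Mt VC (62.5% of all genes tested). These 2, MDS3 and AT2G23200, reached 1 FPKM in no pollen nuclei library outside V-Mt VC. They were thus tested only through the group where they were high, and their higher calls follow in part from the filter. MDS3 had 10.5, 9.37 and 8.25 FPKM in V-Mt VC while all WT VC libraries listed it at 0 (limma adjusted p = 6.94e-09). AT2G23200 averaged 1.71 FPKM in V-Mt VC and 0.587 FPKM in WT VC (log2 fold change 0.76, SE 0.17, limma adjusted p = 0.00206), a direction that turned to -1.67 under quantile normalization. After median-ratio scaling 1 CrRLK1L gene was called higher and 1 lower (55.2% and 16.5% of all genes tested), and after quantile normalization 1 higher and 2 lower (33.2% and 25.4%). LRE, the LORELEI protein of the synergid cells of the ovule, had 2.3, 2.0 and 1.98 FPKM in V-Mt VC while WT VC listed it at 0 (limma adjusted p = 1.86e-08). LRE too passed the filter through V-Mt VC alone. LLG1, the other LORELEI gene tested, had 0.78, 1.36 and 4.74 FPKM in V-Mt VC, against 5.9, 13.2 and 15.04 FPKM in WT VC, and was not called (limma adjusted p = 0.0639). Under either other scaling 1 LORELEI gene was called lower and 1 higher.

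In WT pollen, levels of the 9 transcripts were compared between sperm and vegetative nuclei. Vegetative markers summed to 989 to 1346 FPKM in WT SC and 4416 to 5379 FPKM in WT VC. The part of vegetative RNA in the SC levels was not tested. The 4 receptors, LLG3 and MRI were lower in WT SC, while LLG2, RALF4 and RALF19 did not pass the test (13.1% of the 19733 genes tested were called lower in WT SC and 27.3% higher, and 16.3% were lower with no overlap). ANX1 was the most skewed, with 8.85, 2.31 and 19.6 FPKM in WT SC, against 104, 113 and 114 FPKM in WT VC (log2 fold change -3.67, SE 0.54, limma adjusted p = 0.000311). MRI had 30.8, 17.1 and 51.1 FPKM in WT SC, against 151, 275 and 282 FPKM in WT VC (-2.88, SE 0.55, limma adjusted p = 0.00177). LLG3 had 207, 276 and 265 FPKM in WT SC, against 1326, 1339 and 1353 FPKM in WT VC (-2.43, SE 0.19, limma adjusted p = 3.26e-06). In these 3 genes every WT SC library lay well below every WT VC library.

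ANX2, BUPS1 and BUPS2 were lower in WT SC by a smaller margin. ANX2 had 234, 249.8 and 113 FPKM in WT SC, against 668, 461 and 463 FPKM in WT VC (log2 fold change -1.47, SE 0.32, limma adjusted p = 0.00401). BUPS1 had 359, 306 and 235 FPKM in WT SC, against 854, 812 and 812 FPKM in WT VC (-1.48, SE 0.24, limma adjusted p = 0.000586). BUPS2 had 27.8, 23.3 and 21.3 FPKM in WT SC, against 82.9, 76.1 and 70.6 FPKM in WT VC (-1.63, SE 0.52, limma adjusted p = 0.0286). The groups did not overlap in any of the 3, but the BUPS2 call was lost without any WT VC library in turn or without WT SC replicate 2 or 3, at adjusted p-values up to 0.0779.

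For the ligands and LLG2 the nuclei types overlapped in WT. RALF4 had 1212, 1492 and 415 FPKM in WT SC, against 956, 677 and 549 FPKM in WT VC (log2 fold change 0.36, SE 0.56, limma adjusted p = 0.705). RALF19 had 1493, 1659 and 480.2 FPKM in WT SC, against 691, 546 and 547 FPKM in WT VC (0.84, SE 0.62, limma adjusted p = 0.325). LLG2 had 549.9, 711 and 268 FPKM in WT SC, against 763, 614 and 538 FPKM in WT VC (-0.42, SE 0.38, limma adjusted p = 0.437). In both ligands, replicates 1 and 2 of WT SC lay above every WT VC library and replicate 3 lay below every one. Without replicate 3 of WT SC and of V-Mt SC, a choice made after the values were seen, both ligands were called higher in WT SC, RALF4 by 0.92 (limma adjusted p = 0.0203) and RALF19 by 1.41 (limma adjusted p = 0.0021), in a fit that called 32.3% of 19361 genes higher. With all libraries and median-ratio scaling the signs turned, to -0.78 for RALF4 and -0.30 for RALF19, with neither called.

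**Figure D2:**
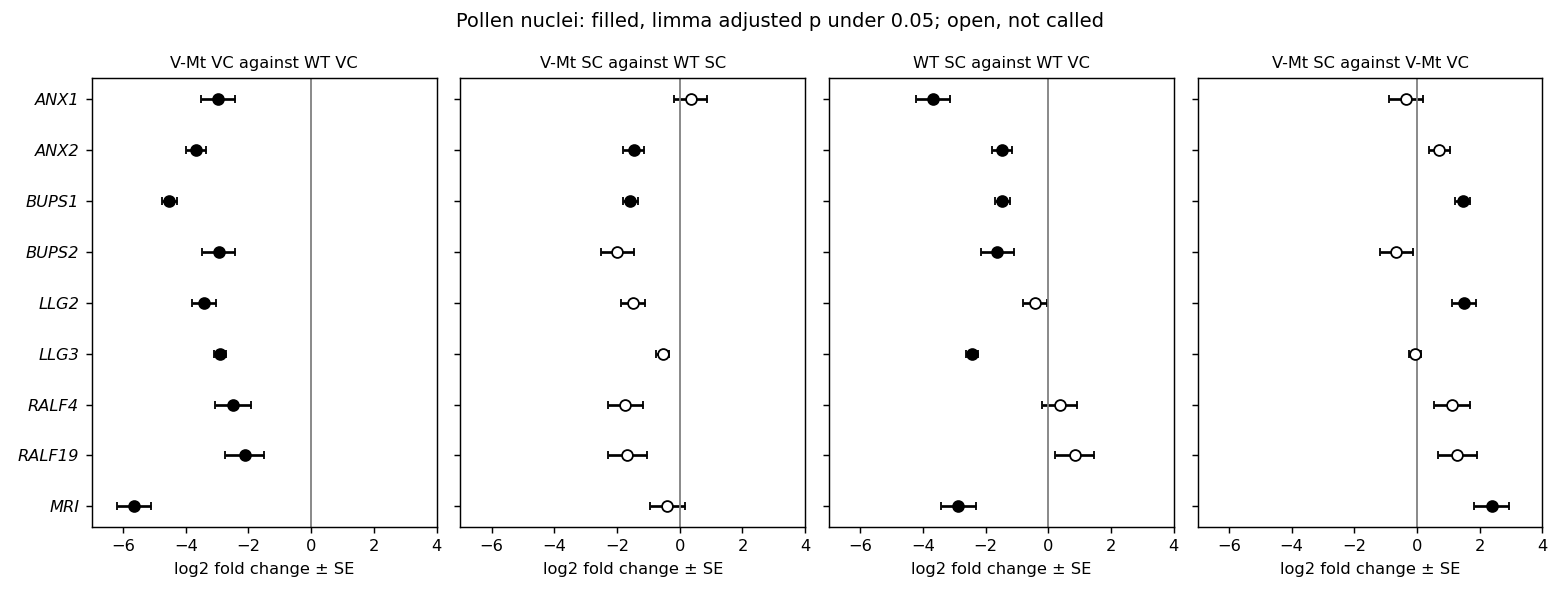
Log2 fold change on the log2(FPKM + 1) scale with its SE for the 9 genes in the 4 comparisons of pollen nuclei, 3 libraries a group. Filled points passed the limma test at an adjusted p under 0.05 and open points did not. All 9 are filled and negative in V-Mt VC against WT VC, and in WT SC against WT VC the ligands sit right of 0 and are open.

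In sperm nuclei of the lines, fewer of the genes were called. ANX2 and BUPS1 fell in V-Mt SC relative to WT SC, no member was called higher, and 7 of 9 had an unadjusted p under 0.05, against 23.5% of all genes tested (3.93% of the 19733 genes tested were called lower and 1.18% higher, and 11.6% were lower with no overlap). ANX2 had 49.7, 79.8 and 75.1 FPKM in V-Mt SC, against 234, 249.8 and 113 FPKM in WT SC (log2 fold change -1.48, SE 0.32, limma adjusted p = 0.0328). BUPS1 had 103, 72.1 and 126 FPKM in V-Mt SC, against 359, 306 and 235 FPKM in WT SC (-1.59, SE 0.24, limma adjusted p = 0.0118). Neither gene overlapped between the lines. The ANX2 call was lost in 8 of 21 alternative settings, among them leaving out V-Mt SC replicate 1, WT SC replicate 1 or 2, or replicate 2 or 3 of WT VC, at adjusted p-values up to 0.175. The BUPS1 call was lost when the fit held only these 2 groups (adjusted p = 0.143).

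BUPS2 and LLG2 also had every V-Mt SC library below every WT SC library without passing the test. BUPS2 had 1.88, 4.17 and 15.8 FPKM in V-Mt SC, against 27.8, 23.3 and 21.3 FPKM in WT SC (log2 fold change -1.99, SE 0.52, limma adjusted p = 0.0555). LLG2 had 164, 116 and 249 FPKM in V-Mt SC, against 549.9, 711 and 268 FPKM in WT SC (-1.48, SE 0.38, limma adjusted p = 0.0531). The ligands overlapped between the lines with 1 library of each line apart from the rest. RALF4 had 205, 157 and 626 FPKM in V-Mt SC, against 1212, 1492 and 415 FPKM in WT SC (-1.74, SE 0.56, limma adjusted p = 0.101). RALF19 had 237, 168 and 904 FPKM in V-Mt SC, against 1493, 1659 and 480.2 FPKM in WT SC (-1.68, SE 0.62, limma adjusted p = 0.135). LLG3 averaged 172 ± 41.4 FPKM in V-Mt SC and 249 ± 37.1 FPKM in WT SC (SD, n = 3 each; -0.55, limma adjusted p = 0.123).

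ANX1 and MRI, the genes with the widest gap between vegetative nuclei and sperm nuclei of WT, overlapped between the sperm nuclei of the lines. ANX1 had 13.2, 7.71 and 10.0 FPKM in V-Mt SC, against 8.85, 2.31 and 19.6 FPKM in WT SC (log2 fold change 0.34, SE 0.54, limma adjusted p = 0.780). MRI had 37.9, 33.3 and 8.89 FPKM in V-Mt SC, against 30.8, 17.1 and 51.1 FPKM in WT SC (-0.40, SE 0.55, limma adjusted p = 0.733). Their errors are wide, so equal levels are not shown.

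The sperm libraries that stood apart did so in several genes at once. Replicate 3 of V-Mt SC had the highest RALF4, RALF19 and LLG2 of its group and the lowest MRI, and replicate 3 of WT SC had the lowest RALF4, RALF19 and LLG2 of its group and the highest MRI and ANX1. Transcripts of plastid and mitochondrial genes took 0.0161% of summed FPKM in the third V-Mt SC library. They took 0.0432% and 0.0731% in the first and second WT SC libraries and 0.00118% or less in the other 3 SC libraries. The 3 SC libraries with the most organelle transcripts were those with the most RALF4 and RALF19. REF6 itself was at 436 FPKM in V-Mt SC replicate 3, against 28.9 and 58.4 FPKM in the other V-Mt SC libraries. The vegetative markers summed to 1353 FPKM there, against 642 and 709 FPKM. Most of that sum was VGD1, at 1083.5 FPKM in replicate 3. The other vegetative markers together were lower in replicate 3 than in replicates 1 and 2. The part of these differences in the ligand levels was not tested. Without replicate 3 of both SC groups, 7 of 9 genes were called lower in V-Mt SC than in WT SC, and with all libraries 2. The share of all genes called lower rose too, to 15.4% of 19361 without those libraries, against 3.93% with all.

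Within V-Mt pollen, some of the genes were higher in sperm nuclei. BUPS1, LLG2 and MRI were higher in V-Mt SC than in V-Mt VC, and no member was called lower (13.4% of the 19733 genes tested were called higher and 58% lower, and 14.8% were higher with no overlap). MRI, the gene with the widest gap, had all its V-Mt SC libraries above its V-Mt VC libraries (log2 fold change 2.38, SE 0.55, limma adjusted p = 0.00264). LLG2 rose by 1.50 (SE 0.38, limma adjusted p = 0.00468) and BUPS1 by 1.46 (SE 0.24, limma adjusted p = 0.000254), both with no overlap. ANX2 was higher in every V-Mt SC library but missed the threshold (0.71, SE 0.32, limma adjusted p = 0.0683). The ligands overlapped here too, at 1.12 for RALF4 (limma adjusted p = 0.0986) and 1.28 for RALF19 (limma adjusted p = 0.0860). ANX1, BUPS2 and LLG3 had log2 fold changes of -0.35, -0.66 and -0.06 and were not called. After median-ratio scaling or quantile normalization 6 members were called higher in place of 3 (15.5% and 23% of all genes tested in the scaled data), and the sign of LLG3 and ANX1 turned.

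The difference between the line effect in VC and that in SC was tested directly as an interaction. For 6 genes the V-Mt minus WT difference was more negative in VC than in SC (7.18% of the 19733 genes tested had a lower interaction and 60.5% a higher one). Of these, ANX1 did not fall in SC (log2 fold change 0.34) and MRI was not called there (-0.40). MRI differed by -5.25 on the log2 scale (SE 0.78, limma adjusted p = 0.000157), ANX1 by -3.32 (SE 0.77, limma adjusted p = 0.00294) and BUPS1 by -2.94 (SE 0.34, limma adjusted p = 2.59e-05). LLG3, ANX2 and LLG2 differed by -2.37, -2.19 and -1.92 (limma adjusted p = 2.74e-05, 0.00157 and 0.00902). BUPS2, RALF4 and RALF19 had interactions of -0.97, -0.76 and -0.44 and did not pass (limma adjusted p = 0.266, 0.418 and 0.672). The 6 calls held in all 20 alternative settings run for this test.

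Ordered by mean level within the pollen nuclei table, the 9 genes fell into 3 patterns. ANX2 and BUPS1 ran from WT VC through WT SC and V-Mt SC down to V-Mt VC, with no overlap at any step. LLG2 and MRI had the same order, with overlap between WT VC and WT SC for LLG2 and between WT SC and V-Mt SC for MRI. ANX1, BUPS2 and LLG3 were highest in WT VC with no overlap, and their 2 lowest groups overlapped. RALF4 and RALF19 were highest on average in WT SC, and every neighbouring pair of groups in their order overlapped. Across the 12 libraries the Pearson correlation of log2(FPKM + 1) was 0.98 between RALF4 and RALF19 and 0.97 between ANX2 and BUPS1, against -0.0042 between ANX1 and RALF19. These libraries share their group means and their depth, so the correlations are descriptions.

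**Figure D3:**
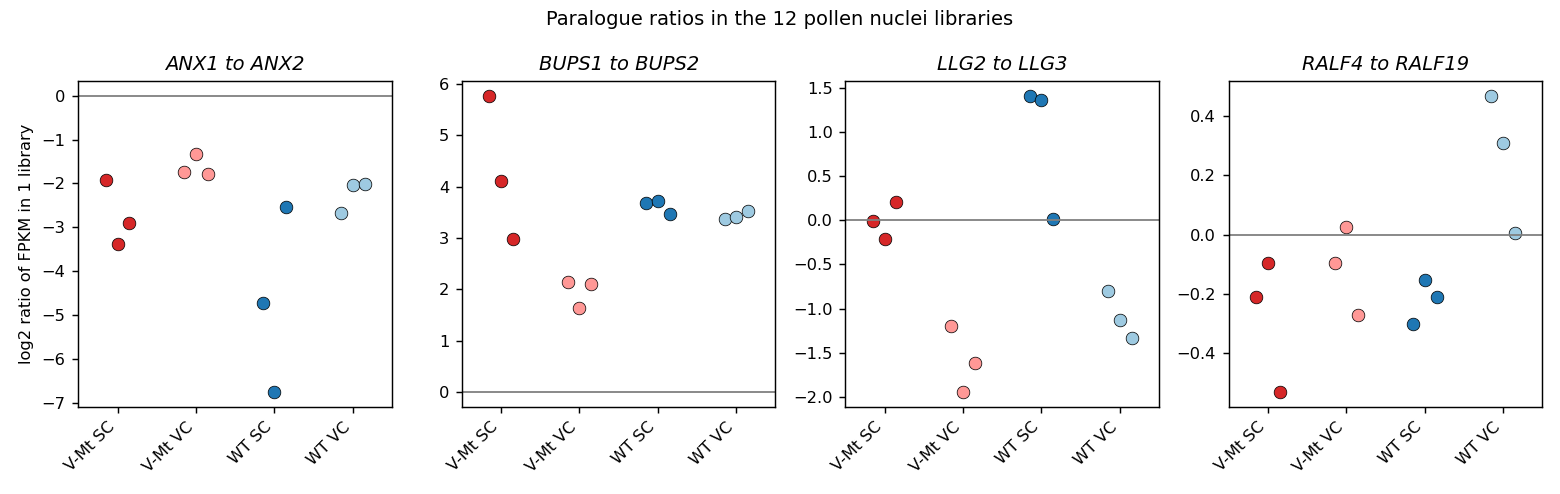
Log2 ratio of the FPKM of paralogues within each of the 12 pollen nuclei libraries, where a value above 0 means more of the first-named gene. BUPS1 exceeds BUPS2 in every library, by 3.10 to 4.44 times in V-Mt VC and 10.3 to 11.5 times in WT VC, and LLG2 to LLG3 is higher in SC than in VC of either line.

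Each pair of paralogues had its own balance. ANX1 reached 0.289 to 0.397 of the ANX2 level in V-Mt VC and 0.156 to 0.247 in WT VC, and the least was 0.00925 in WT SC replicate 2. BUPS1 was 3.10 to 4.44 times BUPS2 in V-Mt VC, against 10.3 to 11.5 times in WT VC, so these ranges did not overlap. LLG2 was 0.866 to 1.15 times LLG3 in V-Mt SC and 1.01 to 2.66 times in WT SC, against 0.260 to 0.435 times in V-Mt VC and 0.398 to 0.576 times in WT VC, which separated SC from VC in both lines. RALF4 was 0.812 to 0.9 of RALF19 in WT SC and 1.0 to 1.38 in WT VC, a narrow range beside the spread of either ligand. The coding sequences of these pairs were identical at 81.3% of aligned bases for ANX1 and ANX2, 82.4% for BUPS1 and BUPS2, 79.8% for LLG2 and LLG3 and 77% for RALF4 and RALF19. The longest identical run in their transcripts was 20 to 34 bases.

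Several of the rows share reads with neighbours or rest on assembled models. The library kit did not mark strand, so reads of overlapping genes on opposite strands cannot be told apart. ANX1 overlaps AT3G04700, which averaged 163 FPKM in V-Mt VC and 1367 FPKM in WT VC, and AT3G04710, so the ANX1 level is uncertain. In sperm nuclei AT3G04700 averaged 313 FPKM in V-Mt SC and 882 FPKM in WT SC, while ANX1 averaged 10.3 FPKM in V-Mt SC and 10.2 FPKM in WT SC. LLG3 overlaps AT4G28290 over 1618 bases, but that gene averaged 20.0 FPKM in V-Mt VC and 29.8 FPKM in WT VC, far under LLG3. In the pollen nuclei table, models other than the reference isoform carried at least 99.5% of the ANX2 level, 97.5% of the BUPS1 level and 78.3% of the BUPS2 level, and up to 11.1% of RALF19 and 20.1% of LLG3, with none of the ANX1, RALF4 or MRI level.

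In most late microspore libraries the ligands and LLG2 were already abundant and the receptors mostly were not. Tapetum markers in these libraries summed to 988 to 1410 FPKM in V-Mt LMS and 1100 to 1510 FPKM in WT LMS. Leaf markers summed to 727 to 998 FPKM in V-Mt LMS and 867 to 911 FPKM in WT LMS. The part of RNA from other cells in the levels below was not tested. No gene was called between V-Mt LMS and WT LMS, for these 9 or for any of the 18002 tested (0%), and none of the 9 had an unadjusted limma p under 0.05, against 1195 genes in the table. REF6 itself was not called there, with 1160.1, 1175 and 506 FPKM in V-Mt LMS, against 77.7, 108 and 125 FPKM in WT LMS (log2 fold change 3.11, SE 0.37, limma adjusted p = 0.193), so the lack of calls does not show that levels were alike. Levels of the microspore table were set by the authors apart from those of the pollen nuclei, so no test was made between them. RALF4 had 1164, 27.4 and 896 FPKM in V-Mt LMS, against 6.67, 763 and 514 FPKM in WT LMS (log2 fold change 1.1, SE 1.83, limma adjusted p = 0.952). RALF19 had 582, 0 and 567 FPKM in V-Mt LMS, against 8.27, 511 and 276 FPKM in WT LMS. LLG2 had 408, 0 and 478 FPKM in V-Mt LMS, against 44.4, 415 and 324 FPKM in WT LMS. In each of these genes V-Mt LMS replicate 2 and WT LMS replicate 1 were far below the other 4 libraries, whichever the line.

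BUPS1 was the receptor with the steadiest microspore level, at 77.5, 43.4 and 42.6 FPKM in V-Mt LMS, against 12.8, 35.2 and 36.5 FPKM in WT LMS. All V-Mt LMS libraries lay above all WT LMS libraries (4.54% of genes tested did so), and the difference did not pass the test (log2 fold change 1.01, SE 0.57, limma adjusted p = 0.825). ANX2 had 38.0, 0 and 16.2 FPKM in V-Mt LMS, against 0, 17.0 and 0.350 FPKM in WT LMS. ANX1 had 21.6, 0.88 and 0.5 FPKM in V-Mt LMS, against 1.96, 3.04 and 5.41 FPKM in WT LMS, and BUPS2 had 11.3 FPKM or less in every microspore library. MRI was listed at 0 in 2 of 3 V-Mt LMS libraries and had 2.52 FPKM in the third, against 2.73, 28.5 and 1.23 FPKM in WT LMS. Models other than the reference isoform carried at least 96.9% of these MRI levels above 0. LLG3 had 258, 0 and 106 FPKM in V-Mt LMS, against 0, 134 and 59.4 FPKM in WT LMS. A listing at 0 in these shallower libraries can be a failed estimate and is not taken as absence.

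**Figure D4:**
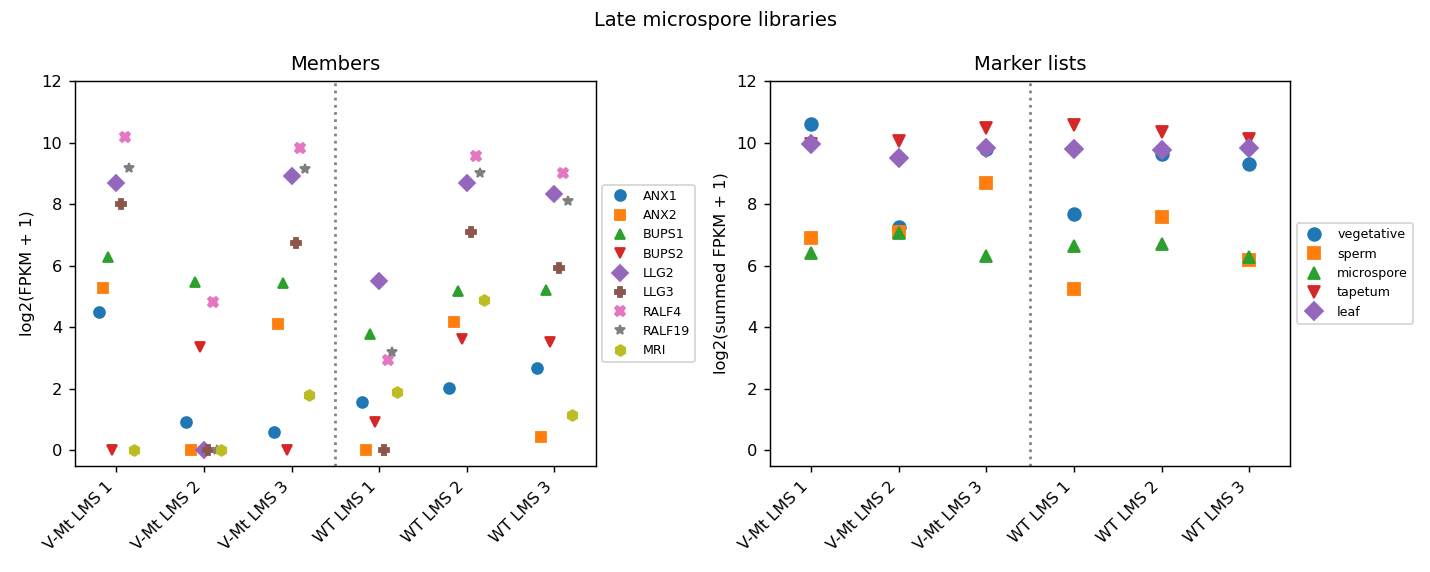
The 6 microspore libraries, V-Mt LMS left and WT LMS right, with the level of each of the 9 genes as log2(FPKM + 1) in the left panel and the summed level of 5 marker lists as log2(summed FPKM + 1) in the right panel. V-Mt LMS 2 and WT LMS 1 are low in the ligands, LLG2 and LLG3 and in the vegetative markers, while the tapetum, leaf and microspore markers stay level.

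The 9 genes summed to 2550 and 2109 FPKM in V-Mt LMS replicates 1 and 3 and to 81.0 FPKM in replicate 2, against 1919 and 1228 FPKM in WT LMS replicates 2 and 3 and 77.7 FPKM in replicate 1. These low libraries were also each other's closest library by rank correlation over the genes of the table (0.7). Their vegetative markers summed to 151 FPKM in V-Mt LMS replicate 2, against 889.7 and 1540 FPKM in the other V-Mt LMS libraries, and to 203 FPKM in WT LMS replicate 1, against 629 and 793 FPKM in the other WT LMS libraries. MYB81 was at 133 FPKM in V-Mt LMS replicate 2 and 99.9 FPKM in WT LMS replicate 1, inside or above the 76.6 to 104.5 FPKM of the other 4. The part of this difference in the comparison of the lines was not tested. Without these 2 libraries, a choice made after the values were seen, no member was called either, and the log2 fold change was 0.61 for RALF19 and 0.27 for LLG2, against -0.66 and -1.66 with all 6 libraries.

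RALF4 and RALF19 were not the most abundant RALF transcripts of pollen. Of 32 other annotated RALF genes, 23 were in the pollen nuclei table and 17 were tested. RALFL8 stood highest, at 16214 FPKM on average in V-Mt SC and 27397 FPKM in WT SC, and it was not called between the lines in sperm nuclei (log2 fold change -1.07, SE 0.59, limma adjusted p = 0.308). In V-Mt VC, 5 of 17 were higher and 4 lower than in WT VC (62.5% of all genes tested were higher and 10.8% lower). Under median-ratio scaling 5 were higher and 6 lower (55.2% and 16.5% of all genes tested). The fall of RALF4 and RALF19 was thus found in some members of the family. RALFL12 had 1.51, 1.58 and 2.94 FPKM in V-Mt VC, against 8.34, 106 and 95.4 FPKM in WT VC (-3.96, SE 1.01, limma adjusted p = 0.00451). RALFL30 averaged 2.87 FPKM in V-Mt VC and 36.8 FPKM in WT VC (-3.22, SE 1.16, limma adjusted p = 0.0268), a call lost in 4 of 20 alternative settings. RALFL22, named after its values were seen, had 4.73, 8.91 and 5.64 FPKM in V-Mt VC, while WT VC listed it and the other 4 genes called higher at 0. In pollen nuclei outside V-Mt VC, RALFL22 reached 1.63 FPKM at most, RALFL24 1.25 FPKM and RALFL34 1.36 FPKM, and RALF1 was at 0. These genes could not have passed the filter on low values without V-Mt VC. The count of higher calls thus follows in part from that filter.

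Some RALF genes were held in sperm nuclei in both lines, a pattern not seen for RALF4 and RALF19. RALFL18 had 542, 425 and 236 FPKM in V-Mt SC, against 1.25, 0 and 1.77 FPKM in V-Mt VC (log2 fold change 7.69, SE 0.57, limma adjusted p = 5.22e-07). In WT it had 104, 84.4 and 115 FPKM in SC, against 0, 1.71 and 3.41 FPKM in VC (5.47, SE 0.57, limma adjusted p = 2.64e-05). RALFL33 averaged 21.9 FPKM in V-Mt SC and 1.33 FPKM in V-Mt VC (3.46, SE 0.53, limma adjusted p = 0.00015), and 24.0 FPKM in WT SC and 0.367 FPKM in WT VC (4.15, SE 0.53, limma adjusted p = 0.000108). Neither gene had a library of SC at or below a library of VC.

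**Figure D5:**
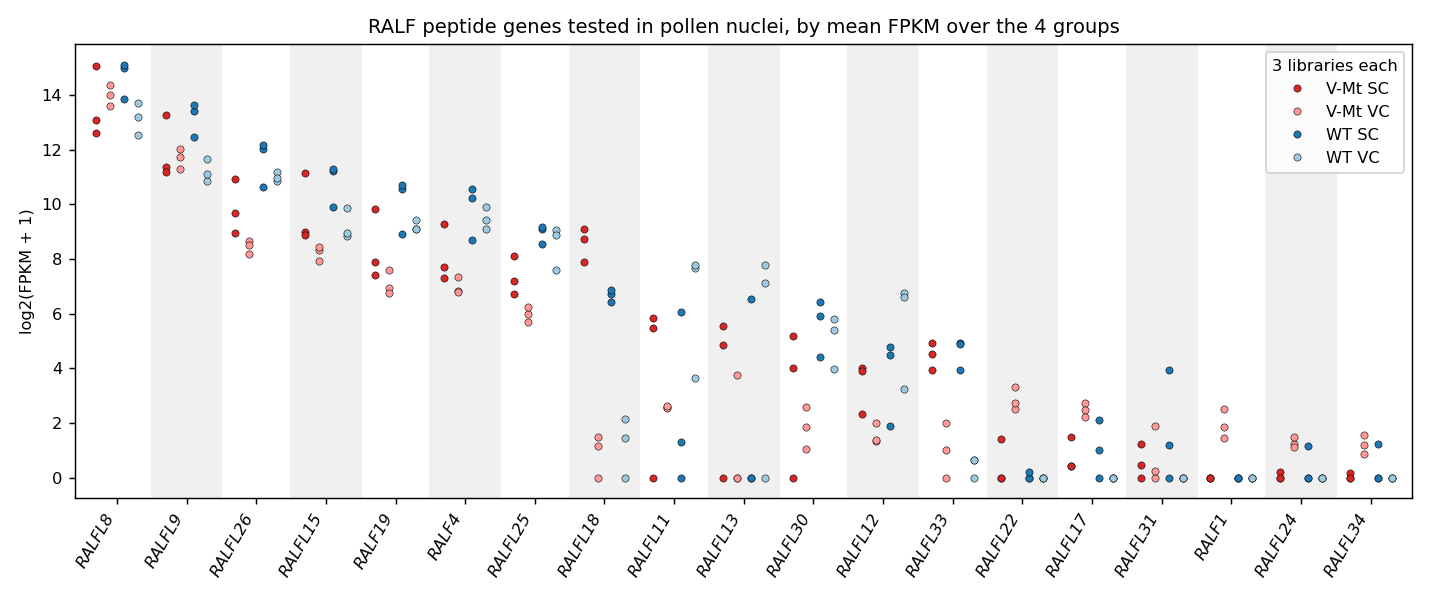
Level of RALF4, RALF19 and the 17 other RALF genes tested, as log2(FPKM + 1) in each of the 12 pollen nuclei libraries, ordered by mean level over the 4 groups. RALF4 and RALF19 lie behind RALFL8, RALFL9, RALFL26 and RALFL15, and RALFL18 and RALFL33 are high in SC of both lines and near 0 in VC.

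The LRX genes were also read between nuclei and between sperm nuclei of the lines. Of the 4, 3 were lower in V-Mt SC than in WT SC (3.93% of all genes tested). That count was 0 under median-ratio scaling (2.28%) and 1 under quantile normalization (1.37%). LRX10 had 5.0, 6.55 and 11.6 FPKM in V-Mt SC, against 26.5, 23.7 and 41.1 FPKM in WT SC (log2 fold change -1.88, SE 0.37, limma adjusted p = 0.0234), and LRX8 averaged 46.3 FPKM in V-Mt SC and 158 FPKM in WT SC (-1.82, SE 0.38, limma adjusted p = 0.0288). The LRX8 call was lost in 7 of 21 alternative settings, among them leaving out V-Mt SC replicate 2 or WT SC replicate 1 or 2, at adjusted p-values up to 0.145, and leaving out libraries gave 1 to 3 lower LRX calls. Relative to WT VC, 3 of 4 were lower in WT SC (13.1% of all genes tested), LRX10 by -3.11 (SE 0.37, limma adjusted p = 6.02e-05) and LRX8 by -2.69 (SE 0.38, limma adjusted p = 0.000227). Between the nuclei of V-Mt the picture was mixed, with 2 higher and 1 lower in SC (13.4% and 58% of all genes tested). LRX11 had 138.5, 136 and 208 FPKM in V-Mt SC, against 14.8, 10.2 and 11.1 FPKM in V-Mt VC (3.62, SE 0.32, limma adjusted p = 1.93e-06), and LRX9 was higher by 1.55 (SE 0.34, limma adjusted p = 0.0019). LRX10 was lower there, though not under either other scaling, and LRX8 was not called. All 4 had a negative interaction that passed the test (7.18% of all genes tested), LRX11 by -3.94 (SE 0.45, limma adjusted p = 2.45e-05) and LRX8 by -3.40 (SE 0.53, limma adjusted p = 0.000239).

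Downstream genes divided in the same comparisons. In V-Mt SC against WT SC none of the 9 tested was called and 3 had an unadjusted p under 0.05 (23.5% of all genes tested). The calcium pump gene ACA9 averaged 86.2 FPKM in V-Mt SC and 146 FPKM in WT SC (log2 fold change -0.80, SE 0.35, limma adjusted p = 0.199). In WT SC against WT VC, 7 were lower and MLO1 was higher (13.1% and 27.3% of all genes tested). RBOHJ was at -3.86 (SE 0.81, limma adjusted p = 0.00325) and RBOHH at -3.65 (SE 0.89, limma adjusted p = 0.00726). Within V-Mt, 3 were lower in SC (58% of all genes tested). AUN1, a phosphatase that acts in the route of MRI, had 14.4, 15.1 and 7.46 FPKM in V-Mt SC, against 79.3, 83.7 and 57.8 FPKM in V-Mt VC (-2.52, SE 0.35, limma adjusted p = 6.77e-05). MLO9 was listed at 0 in V-Mt SC and averaged 5.78 FPKM in V-Mt VC (limma adjusted p = 1.58e-06). The interaction was -3.92 for RBOHH (SE 1.26, limma adjusted p = 0.0176) and 2.92 for MLO1 (SE 1.07, limma adjusted p = 0.0325), and that of MLO1 lost its call in 12 of 20 alternative settings and turned to -0.31 under quantile normalization. CNGC18, a calcium channel gene of the pollen tube tip named after its values were seen, had 431, 493 and 377 FPKM in V-Mt VC, against 489, 520.3 and 570.3 FPKM in WT VC (-0.28, SE 0.37, limma adjusted p = 0.502), with overlap between the lines.

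The scarce family members had few calls outside vegetative nuclei. ERU, a CrRLK1L kinase of root hairs, averaged 0.12 FPKM in V-Mt SC and 4.49 FPKM in V-Mt VC (log2 fold change -2.29, SE 0.37, limma adjusted p = 0.000219), a sign that turned to 0.048 under quantile normalization, and 1.27 FPKM in WT SC and 5.88 FPKM in WT VC (-1.72, SE 0.37, limma adjusted p = 0.00347). AT2G23200 was lower in WT SC than in WT VC by -0.60 (SE 0.17, limma adjusted p = 0.0161). LLG1, the co-receptor of FERONIA in the plant body, averaged 1.48 FPKM in WT SC and 11.4 FPKM in WT VC (-2.47, SE 0.90, limma adjusted p = 0.0488), a call lost in 8 of 20 alternative settings. Neither ERU (-0.90, limma adjusted p = 0.174) nor LLG1 (0.11, limma adjusted p = 1.0) was called between the sperm nuclei of the lines. MDS3 and LRE were listed at 0 in every SC library and passed the filter through V-Mt VC alone. Their interactions passed the test (limma adjusted p = 2.39e-07 and 5.99e-07), as did that of RALFL17 (2.73, limma adjusted p = 0.00406). The interaction of RALFL12 passed as well (-3.65, limma adjusted p = 0.042), but this call was lost in 10 of 20 alternative settings, at adjusted p-values up to 0.100.

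In microspores no gene of these lists was called by limma, and LLG1 was the one partner or family gene tested with no overlap between the lines (7.52% of all genes tested had every V-Mt LMS library below every WT LMS library). The tapetum marker A9 and the vegetative marker AGL66 were lower without overlap too. The vegetative marker AGL104 was higher without overlap, at 20.9 to 65.6 FPKM in V-Mt LMS and 5.56 to 14.2 FPKM in WT LMS. None of these markers was called. LLG1 had 33.8, 6.65 and 9.34 FPKM in V-Mt LMS, against 79.5, 55.1 and 104 FPKM in WT LMS (log2 fold change -2.48, SE 0.67, limma adjusted p = 0.662). RALFL8 averaged 7513 FPKM in V-Mt LMS and 5630.2 FPKM in WT LMS, LRX10 49.0 FPKM in V-Mt LMS and 77.4 FPKM in WT LMS, AUN2 35.3 FPKM in V-Mt LMS and 26.4 FPKM in WT LMS, and AT2G23200 18.1 FPKM in V-Mt LMS and 11.9 FPKM in WT LMS. These 4 overlapped between the lines.

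The genes whose pattern over the 12 pollen nuclei libraries was most like the mean of the 9 were sought by Pearson correlation of log2(FPKM + 1) with the mean of their standardised profiles. The wall protein LRX9 (AT1G49490) came first at 0.989. AT5G19580, annotated as a glyoxal oxidase-related protein, and AT5G07430, of the pectin lyase-like superfamily, followed at 0.985 each, and then AT3G56180, a LURP-one-like protein, and AT3G62710, of a glycosyl hydrolase family, at 0.98 each. Among the 9 themselves, BUPS1 was nearest to their mean at 0.99 and ANX1 farthest at 0.64. These values describe libraries that share their groups and depth.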

How the data were processed

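The 9 genes and the lists of partner genes and markers were chosen with earlier results of these data known. Gene and isoform levels were deposited by the authors as FPKM, in one set of tables for 12 pollen nuclei libraries and another for 6 microspore libraries. Per the submitters' processing notes, RSEM 1.3.1, HISAT2 2.1.0 and Bowtie2 were used for both kinds of library with the TAIR10 build, and StringTie 1.3.5 for pollen nuclei alone. Per the labels' protocols, mRNA of nuclei and total RNA of microspores were amplified with the SMART-Seq HT kit, which does not mark strand.

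From these values, limma 3.58.1 in R 4.3.3 was fitted to log2(FPKM + 1), with 1 mean per group, a trended variance and all libraries of a table in the fit. Fold changes on this scale are too small for low genes. A gene was tested, on both sides, where 3 or more libraries of its table reached 1 FPKM. Benjamini-Hochberg adjustment ran over the whole table with a threshold of 0.05, and all 9 members passed this filter in both tables. A gene scarce elsewhere could pass through the group where it was high, and a higher call there then follows in part from the filter. Steps between low FPKM values of genes with 1 isoform gave the estimated depth, with 65.5% to 77.6% of low values within 0.2 of a whole fragment, too few to recover counts. The test was tried on simulated data. The fit had no replicate block. Of the microspore tables, 2 stray lines of text each were dropped.

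Related genes were named by class and comparison: up to 2 called genes with the largest absolute fold change, or, where none was called, the gene of highest mean level. The genes most alike were the 5 of highest correlation. Alternatives were other pseudocounts (0.1 and 5), filters, scalings, a replicate block, only the groups compared, and leaving out each library. Leaving out the third SC library of both lines together, and V-Mt LMS replicate 2 with WT LMS replicate 1, was chosen after seeing the data. Protein sequences were not used here.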

Additional observations from a re-analysis of the deposited data

Results flagged for a closer look

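In 6 of the 9 genes the difference between V-Mt and WT was not the same in vegetative and in sperm nuclei, by the limma interaction test. The V-Mt minus WT difference of VC, less the V-Mt minus WT difference of SC, was -3.32 for ANX1, -2.19 for ANX2, -2.94 for BUPS1, -1.92 for LLG2, -2.37 for LLG3 and -5.25 for MRI on the log2 scale, each with 3 libraries a group.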

How the results depend on the processing

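The fall of all 9 genes in V-Mt VC relative to WT VC and the 6 interaction calls kept their direction and their call under all 20 alternatives run for each. In V-Mt SC against WT SC, where 2 genes were called lower, 4 were called with a mean of at least 5 FPKM (6.57% of all genes tested). After median-ratio scaling 1 was called (2.28%), and with the replicate block 1 (2.45%). A limma fit to only these groups called 0 (0 of 11545 genes lower and 2 higher, with 1963 at an unadjusted p under 0.05). Leaving out 1 library gave 1 to 7 lower calls, with 7 without V-Mt SC replicate 3 and 6 without WT SC replicate 3, and leaving out both gave 7. These fits called 3.42%, 13.5% and 15.4% of all genes tested lower, against 3.93% with all libraries. In WT SC against WT VC, 0 members were called higher in each fit without 1 library (22.8% to 32.6% of all genes tested) and 2 without both (32.3%). In V-Mt SC against V-Mt VC, 3 were called higher (13.4% of all genes tested), 6 after median-ratio scaling (15.5%) and 6 after quantile normalization (23%). Without 1 library 3 to 5 were called higher (12.7% to 15%), the most without V-Mt SC replicate 2 (13%). Lower calls there numbered 0 to 1 without 1 library (44.8% to 60.2% of all genes tested), 1 without V-Mt SC replicate 3 (57.3%), and 1 without both (60.1%). Why the counts moved was not tested.

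Signs turned mostly in genes that were not called. Quantile normalization gave AT2G23200 -1.67 in V-Mt VC against WT VC, MRI 0.086 in V-Mt SC against WT SC, MLO1 -0.31 in the interaction and, in V-Mt SC against V-Mt VC, ANX1 1.40, BUPS2 1.22, ERU 0.048 and LLG3 0.21. Median-ratio scaling gave MRI 0.10 in V-Mt SC against WT SC, RALF4 -0.78 and RALF19 -0.30 in WT SC against WT VC, and ANX1 0.085 and LLG3 0.41 in V-Mt SC against V-Mt VC. A pseudocount of 0.1 gave LLG1 -0.28 in V-Mt SC against WT SC. Over the fits without 1 library or without replicate 3 of both SC groups, the log2 fold change of V-Mt SC against WT SC ranged over -0.36 to 0.96 for ANX1, -0.96 to 1.11 for LLG1 and -0.78 to 0.61 for MRI, and LLG3 over -0.24 to 0.10 in V-Mt SC against V-Mt VC. Over the same fits, the interaction ranged over -0.93 to 0.86 for RALF19 and -1.15 to 0.41 for RALF4. The upper ends for MRI, RALF19 and RALF4 came without replicate 3 of both SC groups.

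In microspores ANX1 had 0.19 with a pseudocount of 5, 0.32 after quantile normalization and 0.20 without both low libraries, where LLG2 had 0.27 and RALF19 0.61. Over the fits without 1 microspore library or without both low ones, the log2 fold change ranged over -1.34 to 0.62 for ANX1, -3.18 to 1.27 for LLG2, -1.58 to 3.05 for LLG3, -1.02 to 2.82 for RALF4 and -2.44 to 2.39 for RALF19. For related genes it ranged over -0.30 to 0.85 for AT2G23200, -0.23 to 0.99 for AUN2 and -1.002 to 1.91 for RALFL8.

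Same-numbered libraries showed little shared deviation (correlations of -0.20 to 0.15), so the numbers were not taken as pairs. In V-Mt SC against V-Mt VC these correlations were 0.03 to 0.10, so a weak pairing there is not excluded. The replicate block ended the ANX2 call in V-Mt SC against WT SC (limma adjusted p = 0.0533). Depth limits low genes most in microspores, where 1 fragment on 1 kb is worth 0.312 to 0.526 FPKM.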
